A study of Mus musculus with 12 samples.

Results

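The actin cytoskeleton was examined through 10 genes, given by name: the cytoplasmic actins Actb and Actg1, the smooth muscle actin Acta2, the actin-binding gene Tagln, the myosin light chains Myl9 and Myl6, the tropomyosins Tpm1 and Tpm2, the severing factor Cfl1 and the formin Diaph1. All 10 were among the 9073 genes of the count table. They held 0.461% of all counts in the control Input, 0.497% in the shGpr151 Input, 1.77% in the control IP and 1.87% in the shGpr151 IP.

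RNA came from samples labelled as neurons of the dorsal root ganglia (DRG) of adult mice with the genotype RPL22HA+/+;Advillin-Cre+. In these mice Cre expressed from the Advillin gene puts a haemagglutinin (HA) tag on ribosomal protein L22, mainly in sensory neurons. The Input also held markers of other cells, such as macrophages and fibroblasts, as given below. The 4 groups were Input (lysate RNA) and anti-HA immunoprecipitate (IP, RNA held on tagged ribosomes), each after an adeno-associated virus (AAV) named AAV-control or AAV-shGpr151, with 3 columns of counts a group. All groups share the tagged allele and the Cre, so none measures what the antibody binds without a tag. The series design also gives them all a prior sciatic nerve injury and names cultured neurons, whereas the extraction protocol names ganglia collected fresh, and neither source gives sex or time after virus.

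Actin exists as monomers and filaments, and cells move, change shape and pull on their surroundings by building, cutting and bundling the filaments. Formins such as Diaph1 nucleate and elongate unbranched filaments, cofilin (Cfl1) severs them, tropomyosins (Tpm1, Tpm2) wrap them, and myosin II, with its regulatory (Myl9) and essential (Myl6) light chains, pulls on them. In sensory neurons actin fills the growth cone that leads a regenerating axon, while Acta2, Tagln, Myl9 and Tpm2 are best known as genes of smooth muscle and other contractile cells around vessels. Many of these genes are textbook targets of serum response factor (SRF), which binds the CArG box. SRF acts through its cofactor MRTF, which is released when actin monomers are used up.

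Promoter sequence (250 bases before to 50 after a gene's start) was matched for 7 of the 10 genes, with 8 starts since Myl6 has 2 of them, in the RefSeq table of build GRCm38.p6. Actb, Tagln and Diaph1 had no entry. Stretches of 60 bases are shown for the starts with an exact CArG box and for Acta2, whose nearest matches have 1 mismatch, because Acta2 and Myl9 were called higher with the hairpin in the Input. Each is written 5′ to 3′ on the gene's strand with the 10 bases of the match in capitals.
Actg1, chr11:120348551-120348610, minus strand: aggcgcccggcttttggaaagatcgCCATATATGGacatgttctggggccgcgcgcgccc
Myl9, chr2:156775278-156775337, plus strand: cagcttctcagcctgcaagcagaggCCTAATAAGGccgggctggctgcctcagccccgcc
Myl6, 1 of its 2 starts, chr10:128493025-128493084, minus strand: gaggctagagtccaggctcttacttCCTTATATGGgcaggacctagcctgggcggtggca
Acta2, 1 mismatch, chr19:34255423-34255482, minus strand: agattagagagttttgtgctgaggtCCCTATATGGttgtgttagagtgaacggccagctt
The matches begin 90, 161, 50 and 84 bases before the start, in that order. The CArG pattern reads the same on both strands, and an exact match lies in 1.63% of the 32851 promoters of the table, while a match with at most 1 mismatch lies in 21.1%. Tpm1 and Cfl1 also have matches with 1 mismatch, whereas Tpm2 and the other Myl6 start have none closer than 2 mismatches. A match is a description of the letters and says nothing here of binding.

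Columns of the same group agreed within sampling noise, with a chi-square of 0.981 to 1.05 per degree of freedom, against 1.80 to 156 for columns of different groups. The 3 columns were therefore summed to 1 sample per group, which leaves every comparison without replicates. Columns held from 1094523 to 2111544 counts. The 95% intervals cover counting error only, because each group is 1 sample. Counts were used as deposited, with no removal of PCR copies here, so the intervals may be too narrow. Levels in CPM are counts scaled to a common library total. Ratios are on sizes scaled by the trimmed mean of M-values (TMM), which sets the typical gene near 0, and "called" means adjusted p under 0.05 in edgeR's quasi-likelihood test over 8312 genes, a comparison of these libraries and not of the conditions. The targeted gene, Gpr151, had 98 to 109 counts in the columns of the control IP and 65 to 96 in the shGpr151 IP, a log2 ratio of -0.002 (interval -0.25 to 0.24) that was not called. Input columns held 6 to 10 counts of it in the control and 4 to 5 with shGpr151 (-0.86, -1.96 to 0.17), also not called. A lower level of the target was thus not detected in the IP, and the labels are used below as the names of libraries.

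**Figure D1:**
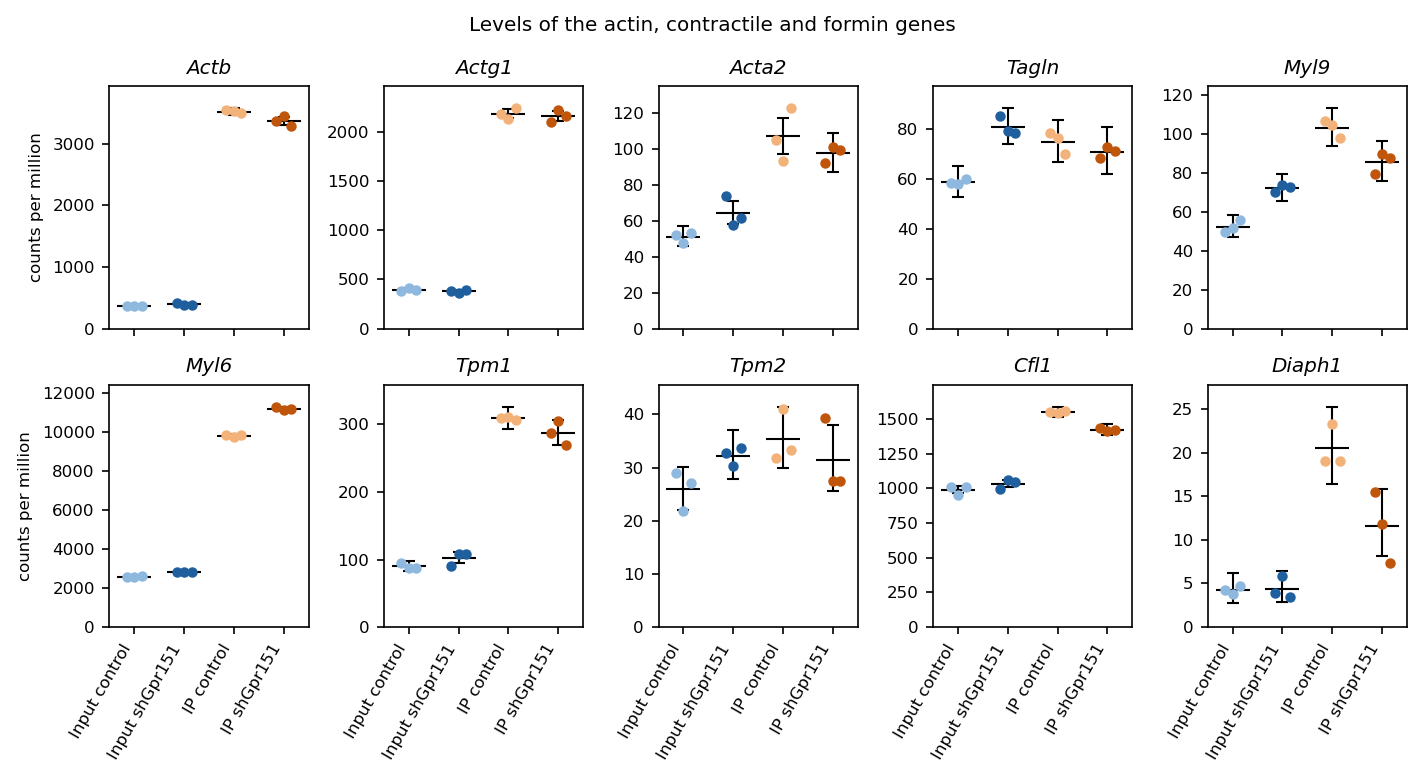
Level in CPM of the library total of the 10 genes in the 4 groups, on an axis from 0 of its own for each gene, with a point for each of the 3 columns, a line for the summed group and bars for its exact 95% Poisson interval. Columns of a group lie on top of each other for abundant genes such as Myl6 and spread for Diaph1, which had 7 to 33 counts a column.

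The cytoplasmic actins make up the filaments of every cell. Actb had 756, 769 and 764 counts in the control Input columns and 834, 791 and 792 in the shGpr151 Input. In the IP it had 5008, 4981 and 4951 counts in the control and 3689, 3775 and 3597 with the hairpin. The shGpr151 columns all lay above the control in the Input and, after TMM scaling, all below it in the IP (levels of 1525 to 1594 against 1669 to 1688 CPM on TMM-scaled sizes). The log2 ratio of shGpr151 to control was -0.11 (-0.14 to -0.07) in the IP, called lower, and 0.10 (0.02 to 0.18) in the Input, not called on TMM sizes but called higher on total counts (0.12) and with RLE size factors (0.12).

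Actg1, the other cytoplasmic actin, had 816, 865 and 823 counts in the control Input and 785, 738 and 812 in the shGpr151 Input. Its IP counts were 3084, 3016 and 3173 in the control and 2301, 2439 and 2369 with the hairpin. After scaling, its columns overlapped between control and shGpr151 in both fractions. Its log2 ratio was -0.06 (-0.10 to -0.01) in the IP and -0.08 (-0.16 to 0.00) in the Input, neither called. It was called lower in the IP without replicate 2 of the control IP (-0.09) or of the shGpr151 IP (-0.10), and in the Input with genes under a mean of 20 counts left out (-0.14). Both actins have near-identical coding sequences and many processed pseudogenes, and the sources used here do not say how reads shared by such copies were counted, so the division of counts between them is uncertain.

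Acta2 encodes the actin of smooth muscle and of contractile fibroblasts. Its Input columns held 110, 101 and 113 counts in the control and 151, 118 and 126 with shGpr151, so the hairpin columns were all higher although the lowest was only a few counts above the highest control. The IP columns held 149, 132 and 174 counts in the control and 101, 111 and 109 with shGpr151, and their scaled levels overlapped. For Acta2 the log2 ratio was 0.31 (0.09 to 0.52) in the Input, called higher, and -0.18 (-0.39 to 0.03) in the IP, not called. The Input call was lost in DESeq2, with a stricter filter on low counts, and without replicate 1 (0.32), 2 (0.25) or 3 (0.34) of the control Input or replicate 1 of the shGpr151 Input (0.20).

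Tagln encodes transgelin, an actin-binding protein abundant in smooth muscle. It had 123, 122 and 127 counts in the control Input and 175, 162 and 161 in the shGpr151 Input, with a clear gap between the groups. In the IP it had 111, 108 and 99 counts in the control and 75, 80 and 78 with the hairpin, which overlapped once scaled for library size. Tagln was called higher in the Input, at a log2 ratio of 0.44 (0.24 to 0.64), and stood at -0.12 (-0.37 to 0.13) in the IP, not called.

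Myl9, the regulatory light chain of smooth muscle and nonmuscle myosin II, had 104, 109 and 118 counts in the control Input and 144, 151 and 149 in the shGpr151 Input. The IP held 151, 148 and 138 counts in the control and 87, 98 and 96 with shGpr151. Its scaled columns did not overlap in either fraction, and they were apart in opposite directions. Its log2 ratio was 0.44 (0.24 to 0.66) in the Input, called higher, and -0.31 (-0.53 to -0.09) in the IP, not called with TMM but called lower with RLE size factors (-0.33) and without replicate 3 of the control IP (-0.37).

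Tpm2, the tropomyosin best known from muscle, was the least counted of these contractile genes. It had 61, 46 and 57 counts in the control Input and 67, 62 and 69 in the shGpr151 Input, and in the IP 45, 58 and 47 against 43, 30 and 30. The Input columns were apart by a single count between the highest control and the lowest hairpin column, and the IP columns overlapped after scaling. The log2 ratio was 0.29 (-0.01 to 0.60) in the Input and -0.22 (-0.59 to 0.16) in the IP, and neither was called. Both intervals still hold 0, so no hairpin difference was detected for Tpm2 within a fraction on TMM sizes. On total counts its Input ratio was 0.31 (0.009 to 0.62).

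Myl6, the essential light chain carried by nonmuscle and smooth muscle myosin II, gave the highest counts of the 10. It had 5367, 5426 and 5548 counts in the control Input and 5727, 5792 and 5731 in the shGpr151 Input, and in the IP 13889, 13721 and 13905 against 12300, 12172 and 12202. After scaling, all shGpr151 columns lay above all control columns in both fractions. The log2 ratio was 0.15 (0.13 to 0.17) in the IP and 0.10 (0.07 to 0.13) in the Input, both called higher. With genes under a mean of 20 counts left out, the Input ratio was 0.04 and was no longer called.

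Tpm1, a tropomyosin of muscle and nonmuscle cells, had 200, 185 and 186 counts in the control Input and 185, 223 and 222 in the shGpr151 Input. In the IP it had 439, 440 and 434 counts in the control and 315, 334 and 295 with shGpr151. The Input columns overlapped, while the scaled IP columns with shGpr151 lay below the control. Its log2 ratio was -0.15 (-0.27 to -0.03) in the IP and 0.16 (-0.00 to 0.33) in the Input, neither called.

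Cfl1 encodes cofilin 1, which cuts filaments and returns monomers. Its counts were 2129, 2012 and 2130 in the control Input and 2041, 2171 and 2142 in the shGpr151 Input, which overlapped. In the IP they were 2192, 2185 and 2206 in the control and 1570, 1547 and 1554 with shGpr151, which did not overlap after scaling. The log2 ratio was -0.17 (-0.22 to -0.11) in the IP, called lower, and 0.04 (-0.01 to 0.09) in the Input, not called.

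Diaph1, the formin that acts downstream of RhoA, was the thinnest of the 10. It had 9, 8 and 10 counts in the control Input and 8, 12 and 7 in the shGpr151 Input, so the groups overlapped there. In the IP it had 27, 33 and 27 counts in the control and 17, 13 and 8 with shGpr151, with no overlap before or after scaling. The log2 ratio in the IP was -0.87 (-1.46 to -0.30), a level 1.83-fold lower, and it was called. It was the only one of the 10 past 1.5-fold in that direction, as were 2.35% of all tested genes. In the Input the ratio was 0.02 (-0.80 to 0.85), an interval that overlaps that of the IP. The IP call was lost without replicate 2 of the control IP (-0.78) and without replicate 2 (-0.91) or replicate 3 (-0.64) of the shGpr151 IP, and DESeq2 gave no adjusted p for this gene.

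Set side by side, the hairpin comparisons gave 4 of 10 genes called higher and 0 called lower in the Input (Acta2, Tagln, Myl9 and Myl6). Over all tested genes 8.31% were called higher and 8.66% lower there. In the IP, 1 of 10 was called higher (Myl6) and 3 lower (Actb, Cfl1 and Diaph1), against 3.72% and 4.97% of all tested genes. On total counts the IP calls over all genes turned from 309 higher and 413 lower to 421 higher and 260 lower, while the 10 genes still had 1 higher and 3 lower. Scaled columns with shGpr151 lay wholly above the control for 6 of 10 genes in the Input and wholly below for 0, beside 14.7% and 14.6% of all tested genes. In the IP they lay wholly above for 1 and wholly below for 5, beside 11.6% and 12.9%. None of the 10 was past 1.5-fold in the Input, where 22.7% of all tested genes were. All these shares compare genes of unlike depth. The median gene of the table had 32 summed counts in the control Input and 108 in the control IP. Of the 10 only Diaph1 lay below that, with 27 and 87. The median log2 ratio of the 10 was 0.13 in the Input, beside -0.07 over all tested genes, and -0.16 in the IP, beside 0.00. In the Input 9 of the 10 ratios were above 0, Actg1 being the exception, and in the IP 9 were below 0, Myl6 being the exception. With total counts in place of TMM sizes there were also 9 above 0 in the Input and 9 below 0 in the IP, whereas with genes under a mean of 20 counts left out Cfl1 was at -0.02 in the Input.

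**Figure D2:**
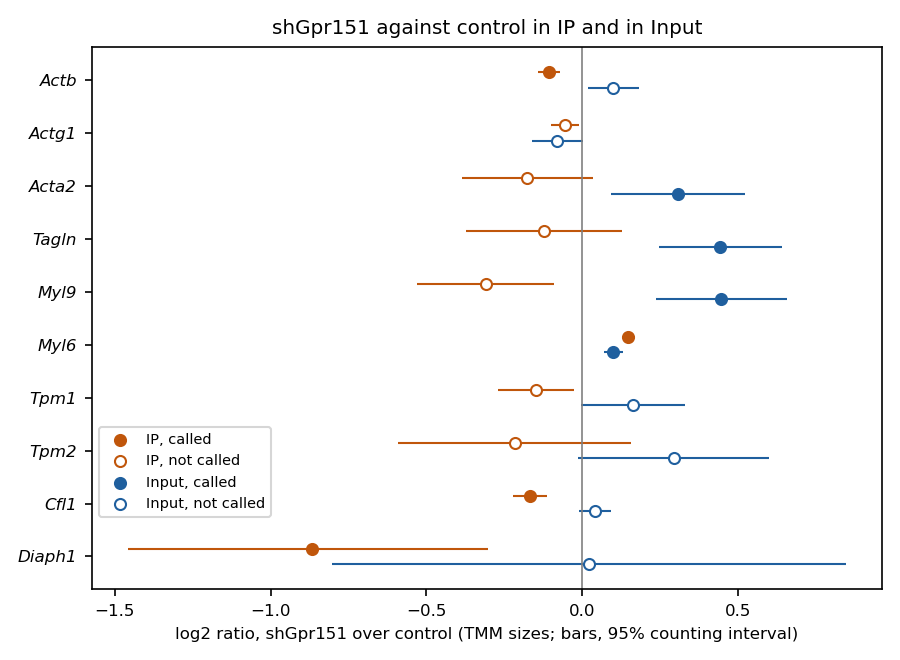
Log2 ratio of shGpr151 to control for each gene in the Input and in the IP, on TMM-scaled sizes, with bars for the 95% counting interval and filled points for called genes. The contractile genes Tagln (0.44) and Myl9 (0.44) sit above 0 in the Input and below 0 in the IP, and Diaph1 sits lowest in the IP at -0.87 with the widest bars.

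The difference between both hairpin ratios (IP minus Input) was tested in the same model. It was called lower for 6 of the 10 genes and higher for 0, while 8.82% of all tested genes were called lower and 5.41% higher. Myl9 had the largest called difference at -0.76 (-1.05 to -0.46), followed by Tagln at -0.56 (-0.88 to -0.25) and Acta2 at -0.48 (-0.78 to -0.19). Tpm1 (-0.31), Cfl1 (-0.21) and Actb (-0.21) were also called. Diaph1 had a difference of -0.89 that was not called, with an interval from -1.84 to 0.06, and Tpm2 had -0.51 (-0.98 to -0.04), called only without replicate 1 of the shGpr151 IP (-0.77). Actg1 (0.02) and Myl6 (0.05) were not called either, although on total counts Myl6 was called higher (0.07) and Tpm1 was no longer called (-0.29). With genes under a mean of 20 counts left out, 4 were called lower and 1 higher: Acta2 (-0.40) and Tpm1 (-0.23) were no longer called and Myl6 was called higher (0.13). The median difference was -0.40, beside 0.06 over all tested genes. Calls for Acta2 and Tpm1 ended without some of the columns, each of which holds part of its group's reads. Acta2 was not called without replicate 2 of the control Input (-0.43) or replicate 1 of the shGpr151 Input (-0.37). Tpm1 was not called without replicate 2 (-0.28) or 3 (-0.30) of the control Input. The same held for Tpm1 without replicate 2 (-0.26) or 3 (-0.27) of the shGpr151 Input. With an assumed biological variation of 10% in place of the columns' own spread, 0 of 10 genes were called in either hairpin comparison or in the difference.

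Acta2, Tagln, Myl9 and Tpm2 are also made by mural cells (vascular smooth muscle and pericytes), so markers of other cells were read beside them. Of 13 mural markers, 6 were in the table, and Notch3, Kcnj8, Abcc9, Vtn, Higd1b, Cnn1 and Des were not among its genes. The 6 summed to 22.9 CPM in the control Input and 21.5 in the shGpr151 Input, with overlapping columns (19.9 to 25.6 and 18.5 to 23.4), whereas Acta2, Tagln and Myl9 were higher there. In the IP the mural sum was 132 CPM in the control and 146 with shGpr151, and none of the 4 tested mural markers was called in either hairpin comparison, where 8.69% (IP) and 17% (Input) of all tested genes were called. Endothelial markers (5 of 10 in the table, without Pecam1, Kdr, Flt1, Tek and Esam) summed to 11.05 and 12.04 CPM in the Inputs and 40.8 and 56.9 in the IPs, also with 0 of 4 called. Fibroblast markers (9 of 10, without Pdgfra) summed to 621 CPM in the control Input and 547 in the shGpr151 Input, with 2 of 9 called lower, and to 1519 and 1868 CPM in the IPs, with 5 of 9 called higher. Sensory neuron markers (15 of 15) summed to 1130 CPM in the control Input (columns 1122 to 1139) and 1316 in the shGpr151 Input (1268 to 1352), and to 17880 and 17330 CPM in the IPs, higher in the Input and lower in the IP, as Actb, Acta2, Tagln and Myl9 were in CPM. The 15 markers had a median log2 ratio of -0.13 in the Input and 0.07 in the IP, opposite to the sum. Uchl1 alone held 3689 of the 7156 summed counts in the control Input and 4926 of 8093 in the shGpr151 Input. In the Input 2 were called higher and 2 lower, and in the IP 2 higher and 3 lower. Uchl1 (0.44 in the Input, -0.16 in the IP) and Calca (0.19 and -0.28) were called higher in the Input and lower in the IP. Prph was called the other way round (-0.43 and 0.10). Snap25 was called lower in the Input (-0.75) and Scn9a higher in the IP (0.33). Satellite glia markers (7 of 8, without Cadm2) summed to 363 and 366 CPM in the Inputs and 1135 and 1231 in the IPs. Among them Fabp7 was called higher in the Input (0.37) and lower in the IP (-0.26). Glul (-0.66) and Apoe (-0.57) were called lower in the Input, and Ednrb (0.40) was called higher in the IP. Leaving out 1 column could end the calls of Scn9a, Ednrb and Fabp7 in the IP and of Snap25 and Glul in the Input. Schwann cell markers summed to 240 and 211 CPM in the Inputs and 2220 and 2277 in the IPs, and macrophage markers to 443 and 467 and to 471 and 497. The part of all these markers in the values of the 10 genes was not tested. In bulk RNA, fewer cells of a type and less RNA per cell cannot be told apart.

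The IP was also set against the Input, to see which of these transcripts were held on tagged ribosomes more or less than the typical transcript. All 15 sensory neuron markers were called higher in the control IP, with a sum of 1130 CPM in the Input and 17880 in the IP, while 8 of 10 macrophage markers were called lower. Schwann cell markers (8 of 10 in the table) were also high in the IP, with 240 CPM in the control Input and 2220 in the control IP, so transcripts of other cells remained in the IP. The top 100 genes took 49.2% of the counts in the control Input and 29.0% in the control IP, and TMM sizes place the log2 ratio of IP to Input 2.17 lower than total counts do. Directions below are therefore relative to the typical gene, and on total counts all 10 genes were above 0 in the control pair, where the calls over all genes turned from 2703 higher and 2728 lower to 6962 higher and 921 lower.

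Actb was higher in the IP by 2.16-fold in the control pair (log2 ratio 1.11, interval 1.05 to 1.17) and by 1.87-fold in the shGpr151 pair (0.90, 0.84 to 0.97). Actg1 was higher by 1.22-fold (0.29, 0.23 to 0.36) and 1.24-fold (0.32, 0.25 to 0.38). The cytoplasmic actins were the only 2 of the 10 called higher, and both kept that direction on total counts. Among all tested genes 32.5% were called higher and 32.8% lower in the control pair, and 33.6% and 33% in the shGpr151 pair.

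The other 7 called genes were lower in the control IP than the typical gene, but higher than in the Input on total counts. Tagln had the lowest ratio, -1.82 (-2.04 to -1.60) on TMM sizes and 0.35 on totals. Tpm2 followed with -1.72 (0.45 on totals), then Cfl1 with -1.53 (0.65), Myl9 with -1.20 (0.98) and Acta2 with -1.11 (1.07). Tpm1 (-0.40, and 1.78 on totals) and Myl6 (-0.25, and 1.92 on totals) lay nearer to the typical gene. Diaph1 was at 0.09 (-0.54 to 0.77) and not called.

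With shGpr151 the 5 lowest genes were the same and lay further from 0, at Tagln -2.39, Tpm2 -2.23, Myl9 -1.95, Cfl1 -1.73 and Acta2 -1.59. Tpm1 was at -0.71, Myl6 at -0.20 and Diaph1 at -0.80 (-1.55 to -0.03), Diaph1 alone not being called, though it was called lower without replicate 3 of the shGpr151 Input (-0.95) or replicate 1 of the shGpr151 IP (-1.05). On total counts Tagln (-0.19) and Tpm2 (-0.04) stayed below 0 in this pair and the other 8 were above it. The median of the 10 was -0.75 in the control pair and -1.19 in the shGpr151 pair, beside 0.06 and 0.10 over all tested genes. This change between the pairs is the same quantity as the difference of hairpin ratios given above.

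**Figure D3:**
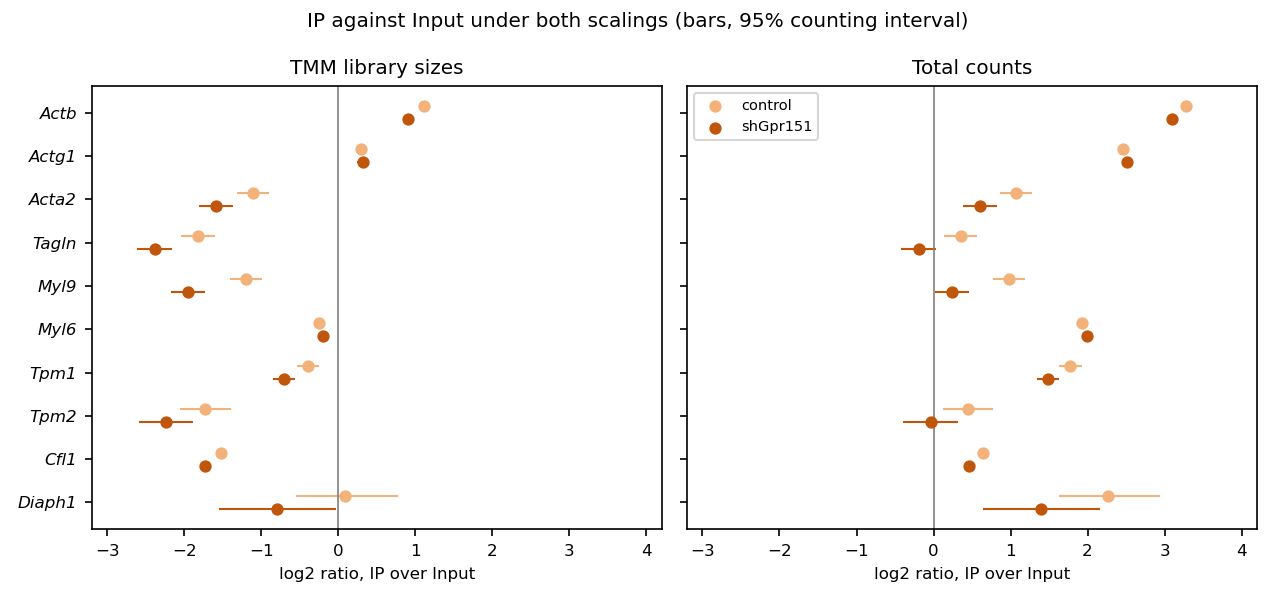
Log2 ratio of IP to Input for each gene in the control and shGpr151 pairs, on TMM-scaled sizes and on total counts, with bars for the 95% counting interval. Actb and Actg1 are above 0 on both scales, while Tagln moves from -1.82 on TMM sizes to 0.35 on total counts in the control pair.

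Shares between related genes within 1 library do not depend on how libraries are scaled to each other. They are shares of counts with exact (Clopper-Pearson) intervals, not corrected for transcript length, so each is compared only with itself in another library. Actb took 47.8% (46.3 to 49.2) of the counts of Actb and Actg1 in the control Input, 50.9% (49.4 to 52.3) in the shGpr151 Input, 61.7% (61.1 to 62.3) in the control IP and 60.9% (60.2 to 61.6) in the shGpr151 IP. The IP thus held more Actb relative to Actg1 than the Input in both treatments, and the 2 IP intervals overlapped.

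Acta2 took 6.33% (5.68 to 7.03) of the counts of the 3 actins in the control Input and 7.67% (6.96 to 8.44) in the shGpr151 Input. In the IP it took 1.84% (1.68 to 2.02) and 1.74% (1.55 to 1.94). Tpm2 took 22.3% (19.4 to 25.5) and 23.9% (21.04 to 26.97) of tropomyosin counts in the Inputs and 10.2% (8.74 to 11.9) and 9.84% (8.10 to 11.8) in the IPs. For both pairs of genes, the muscle form took a smaller share in the IP than in the Input, whichever virus was given.

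The share of Myl9 among Myl9 and Myl6 counts moved with the hairpin in both fractions and in opposite directions. It was 1.99% (1.78 to 2.21) in the control Input and 2.51% (2.28 to 2.75) in the shGpr151 Input. In the IP it was 1.04% (0.947 to 1.14) in the control and 0.760% (0.674 to 0.854) with shGpr151. Neither pair of intervals overlapped. Tagln took 5.60% (5.06 to 6.18) of the counts of Tagln and Cfl1 in the control Input and 7.27% (6.66 to 7.91) in the shGpr151 Input, while its IP shares of 4.61% (4.12 to 5.13) and 4.75% (4.17 to 5.38) overlapped.

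**Figure D4:**
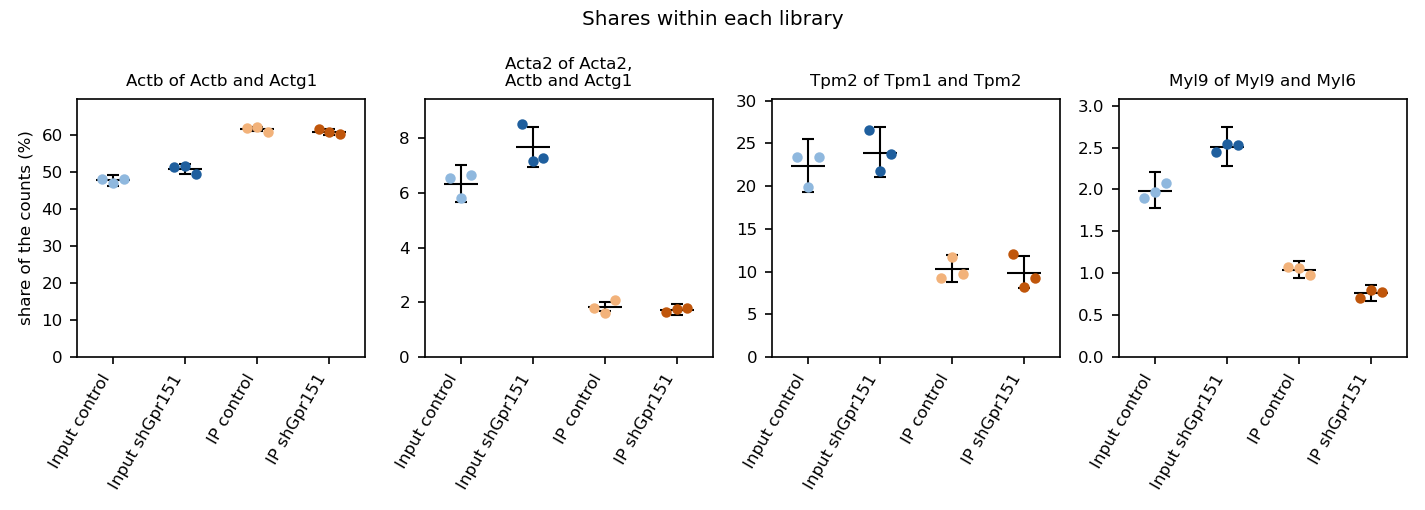
Share of counts (percent) taken by 1 gene among related genes in each of the 4 libraries, with a line for the summed group, bars for its exact 95% interval and the 3 columns as points. The Myl9 share is higher with shGpr151 in the Input (1.99 to 2.51%) and lower in the IP (1.04 to 0.760%).

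The rest of the pathway was read from 7 lists of actin genes. Among other actin and tropomyosin isoforms, 5 of 7 were tested. Tagln3, the neuronal transgelin, was called lower in the IP (-0.21) and Tagln2 higher in the Input (0.28), and the other 4 were not called in each. Of 14 further smooth muscle contractile genes only 7 were tested. None of them was called higher in the Input beside Acta2, Tagln and Myl9, where Crip1 was called lower (-0.18), and in the IP Cald1, which encodes the filament-binding protein caldesmon, was called lower (-0.21). The median of this list was -0.20 in the Input, opposite in sign to that of the 10 genes.

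Nonmuscle myosin II and its regulators had 13 of 14 genes tested. Myl12a and Myl12b, regulatory light chains closely related to Myl9, followed the pattern of Myl9: Myl12a was called lower in the IP (-0.21) and higher in the Input (0.23), and Myl12b likewise (-0.14 and 0.22). Their differences of hairpin ratios, -0.43 and -0.36, were called too. The 3 light chains are related in sequence, so the division of reads among them is uncertain in the same way as for the actins. Cnn2, a calponin, was called lower in the IP (-0.40), and Cnn3 (-0.49) and Rhoa (-0.27), the GTPase that activates Diaph1, were called lower in the Input. No myosin heavy chain gene of the list was called in either hairpin comparison.

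Of the 14 other formins, 7 were in the table and 6 tested. Fmnl3 alone was called, higher with shGpr151 in both fractions, on summed counts of 30 and 52 in the IP and 4 and 15 in the Input, and it lies under the count minimum for named genes and is given because it was the only call. Its direction in the IP is opposite to that of Diaph1. The list's median was 0.07 in the IP, beside -0.87 for Diaph1. The Arp2/3 complex, which starts branched filaments, and its activators had 20 of 21 genes tested. In the IP, Actr2 (0.36) and Abi1 (0.35) were called higher and Brk1 (-0.28) lower. In the Input, Brk1 (0.41) and Arpc3 (0.26) were called higher, and Actr2 (-0.71) and Arpc5l (-0.18) lower, so Actr2 and Brk1 were called in opposite directions in the 2 fractions.

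Monomer-binding, severing and capping proteins, the list nearest in role to Cfl1, had 26 of 28 genes tested. The thymosins Tmsb4x (-0.14) and Tmsb10 (-0.08), which hold actin monomers, were called lower in the IP along with Cfl1, and they were also called lower in the Input (-0.23 and -0.24), where Cfl1 was not. Pfn1, profilin 1, which feeds monomers to formins, was called higher in the Input (0.39), and Tmod3 (-0.72), which caps filaments, and Wdr1 (-0.66), which works with cofilin, were called lower. Crosslinkers, membrane linkers and adhesion adaptors had 23 of 23 genes tested, with 3 called higher in the IP (Dbn1 0.50, Add2 0.42, Enah 0.30). In the Input 4 were called lower (Add1 -1.26, Dbnl -1.12, Zyx -0.67, Enah -0.28) and Pls3 higher (0.54). Their median was 0.16 in the IP and -0.26 in the Input, each of the opposite sign to that of the 10 genes. Beside the 10 genes, columns were left out only for up to 2 called genes per list and hairpin comparison. These had the largest ratios among genes with a mean of at least 20 counts. In the IP, leaving out 1 of the 6 columns could end the call of Tagln3, Cald1, Cnn2, Abi1, Dbn1 and Add2. In the Input the same held for Tagln2, Cnn3, Rhoa, Actr2, Wdr1 and Dbnl, and no sign changed. Dbn1 lost its call without any column except replicate 3 of the control IP. Wdr1 lost its call without any column except replicate 1 of the control Input. Other named calls of the actin lists were not checked in this way.

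**Figure D5:**
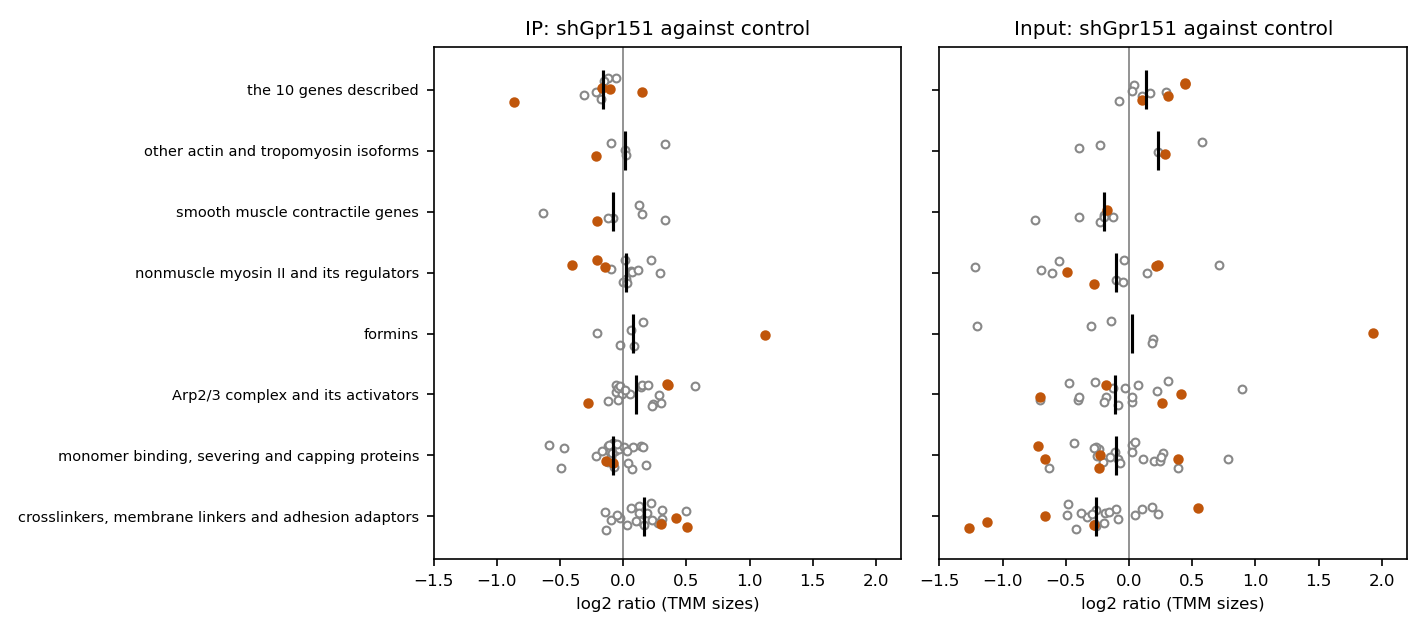
Log2 ratio of shGpr151 to control for each tested gene of the 10 genes and of the 7 actin lists, in the IP and in the Input, with called genes filled and the median of each list marked. The 10 genes have a median of -0.16 in the IP and 0.13 in the Input, while crosslinkers and adaptors have 0.16 and -0.26.

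Genes most like 3 of the 10 were found by the distance between their log2 TMM-scaled levels in the 4 libraries, each centred on its gene, with a distance of 0 for the same pattern. The points are only 4 and are shared by all genes, so this is a description. Nearest to Actb were Dok5 (0.06), Cacnb4 (0.06) and Tmem9b (0.06), against a median distance of 1.42 over 4994 genes. Nearest to Acta2 were Srp14 (0.06), Gins2 (0.07) and Srsf10 (0.07), against a median of 1.995, and none of the other 9 was among the nearest 3. Diaph1 had no gene as close: its nearest were Rab13 (0.29), Rrp7a (0.29) and Cela1 (0.34), against a median of 1.61.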

How the data were processed

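Libraries came from a nanopore kit for barcoded cDNA-PCR, per the labels' protocols. Of tools, the submitters' processing notes list Salmon and minimap2, without versions, and of builds mm39 and GRCm39. How strand was used is not stated in the sources used here. The authors deposited raw counts (whole numbers, no normalization) for genes with at least 1 count in every column. Symbols were matched for 9061 IDs and not for 12. Whether columns of a group came from separate animals or cultures is not stated, so calls measure only the spread between columns, which may be technical (common coefficient of variation 1.22%), and no p-value of a gene is given.

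The fit used edgeR 4.0.16 (R 4.3.3) with TMM, filterByExpr at a minimum count of 10, glmQLFit and glmQLFTest on 12 columns, 1 mean per group, and Benjamini-Hochberg adjustment at 0.05 over 8312 genes, and was tested on simulated data. Each ratio divides summed counts by summed TMM sizes and has an exact conditional binomial interval, or a Wald interval for the difference of ratios. CPM is relative to the library total. Alternatives were RLE sizes, total counts, DESeq2 1.42.0, other filters, fewer groups, a replicate block, each column left out, and 1 summed library a group with an assumed variation of 10% or 20%. Figures used matplotlib 3.10.9. The members and lists were chosen with earlier results of these data known. Beside the 10 genes, the naming rule took up to 3 called genes per list and comparison with the largest ratio and a mean of at least 20 counts. Further called genes are named where a list had 5 or fewer calls, chosen after their values were seen. Of the lists, 1 is not reported here.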

Additional observations from a re-analysis of the deposited data

Results flagged for a closer look

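For 6 genes the hairpin ratio differed between the fractions by the test of the difference in the same model: Myl9 (-0.76), Tagln (-0.56), Acta2 (-0.48), Tpm1 (-0.31), Actb (-0.21) and Cfl1 (-0.21), each the log2 ratio in the IP minus that in the Input. Each group was 1 sample, so these compare 4 libraries.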

How the results depend on the processing

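Of 790 values of the 10 genes under an alternative, 679 kept direction and side of the threshold, 61 lost a call, 18 gained one, and 32 changed sign. Of these 32, 14 were of a ratio called before or after the change and 18 of a ratio called in neither: the difference for Actg1 (-0.07 to 0.05 over left-out columns) and Myl6 (-0.03 to 0.06), and the Input ratio of Diaph1 (-0.25 to 0.18) and Cfl1 (-0.02 with a mean of at least 20 counts). With an assumed variation of 10%, 0 members were called in either hairpin comparison or in the difference, and with 20% also 0, with 5 in the shGpr151 pair of IP and Input (9 as reported). Over all genes, 10% left 1 call in the IP, 85 in the Input and 15 in the difference, 20% left 0, 2, 1 and, in the control pair, 3462, and DESeq2 gave 451 in the IP, 108 higher and 343 lower (722 as reported). DESeq2 called 3, 3, 9, 9 and 6 members in the IP, the Input, the control pair, the shGpr151 pair and the difference. Total counts reversed the IP to Input ratio of Acta2 (1.07), Tagln (0.35), Myl9 (0.98), Myl6 (1.92), Tpm1 (1.78), Tpm2 (0.45), Cfl1 (0.65) and Tpm4 (0.51) in the control pair, and of Acta2 (0.61), Myl9 (0.25), Myl6 (1.995), Tpm1 (1.49), Cfl1 (0.46) and Diaph1 (1.40) in the shGpr151 pair, by the scale itself. A mean of at least 20 counts left Diaph1 out and turned Myl6 in the shGpr151 pair to 0.017. The counts of Myl6 were the same under that filter, so its ratio moved through the recomputed TMM sizes, which all genes share. With that filter the members called in the Input were 2 higher and 1 lower (Actg1) and in the difference 1 higher and 4 lower, and the calls over all genes were 566 higher and 925 lower in the Input (691 and 720 as reported) and 643 and 598 in the difference (450 and 733). Leaving out each column gave 3 to 5 members called in the IP, 3 to 4 in the Input, 9 in the control pair, 9 to 10 in the shGpr151 pair and 4 to 7 in the difference. Replicate numbers did not pair the columns (r from -0.01 to 0.02, with 11 of 36 correlating best with their own number), and a replicate block gave 4, 4, 9, 10 and 6 members. A fit of only the groups compared called 4 members in the IP, 6 in the Input (all higher, 4 as reported), 9 in the control pair and 10 in the shGpr151 pair. Depth limits Diaph1 and Tpm2 most.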
